A study of Drosophila melanogaster with 18 samples.

Results

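INT male flies were set against INT female flies, with 3 RNA-seq libraries of each sex, which are 6 of the 18 libraries of the series. All libraries came from whole Drosophila melanogaster at 5 days of age. INT flies were taken at generation F12 of a stock labelled genetically heterogenous. The labels do not spell out what INT and NINT stand for, and the series title links intelligence with longevity. NINT flies had the same generation, age and strain label, and F0 flies carried a label that names 10 strains (Canton-S, Oregon-R-C, Harwich, w1118, BER_2, DGRP-100, Wild_1A, mwh, flr3 and ORR, flr3). These other groups, with 3 libraries per sex each, were used only to ask whether the sex difference of INT recurred. Nothing in the labels tells whether replicates are separate cohorts or how many flies each pooled, so p-values measure the spread between libraries, which can be technical.

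The INT male libraries held 39227140, 37027304 and 37542643 counts, and the INT female libraries held 35425356, 32981406 and 31605198. Ribosomal RNA entries took 1.84% to 4.57% of counts in INT males and 10.4% to 23.2% in INT females, and SteXh entries took 0.0198% to 0.488% in INT males and 1.59% to 5.48% in INT females. Both were left out before scaling. The 3 yolk protein genes together had 11.6, 15.5 and 13.97 CPM (counts per 1000000 used counts, here without further scaling) in INT males and 16187, 17154 and 16319.9 CPM in INT females. The same sum was 143, 899 and 1011 CPM in NINT males and 1274, 590.002 and 7.13 CPM in F0 males. Some libraries stood apart. INT male replicate 3 had the lowest summed levels of sperm, accessory gland and ejaculatory duct genes among the males and the highest of hemocyte and fat body genes. INT female replicate 3 had the highest sum of muscle genes, and INT female replicate 1 held traces of male tract transcripts.

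In Drosophila, sex is set in each cell by the number of X chromosomes. The RNA-binding protein Sxl is active in females and directs the splicing of tra, which in turn directs the splicing of dsx and fru. In males Sxl protein is absent and msl-2 is translated. The MSL complex, with the noncoding RNAs roX1 and roX2, then binds the single X and raises its transcription. Whole flies also carry either testis, accessory glands and ejaculatory duct or an ovary, so that a comparison of whole bodies counts organs found in 1 sex. In such bulk samples fewer cells of a type and less RNA per cell cannot be told apart.

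INT males and INT females differed at most genes. Levels from here on are CPM after TMM scaling, and fold changes are those of INT males over INT females, as log2. The value after ± is an approximate standard error (SE). It is the size of the log2 over the square root of F from edgeR's quasi-likelihood test. For genes near 0 counts in 1 sex it does not cover how far the log2 moves when a library is left out. A gene was called where its p, adjusted by Benjamini and Hochberg's method over the 14567 genes tested, lay under 0.05. INT males were higher at 5580 genes (38.3%) and lower at 3969 (27.2%), together 9549 (65.6%), and 5018 genes were not called. A gene not called is not shown to be equal in the sexes. A fold change of at least 2 was also met by 4660 of the genes higher in INT males and by 2651 of those lower. The 3 males did not overlap the 3 females in level at 10730 genes (73.7%). The median log2 fold change of all tested genes was 0.24, and that of called genes was 2.40 in size where higher in INT males and 1.31 where lower.

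Noncoding RNAs split by class. Of 778 long noncoding RNAs, 499 (64.1%, against 38.3% of all tested genes) were higher and 96 (12.3%, against 27.2%) lower in INT males. The median log2 was 2.54, beside 0.24 over all tested genes. Small nucleolar RNAs, which guide the modification of ribosomal RNA, went the other way. Of 242, 3 were higher (1.24%, against 38.3%) and 160 lower in INT males (66.1%, against 27.2%), at a median of -1.14. Values of antisense RNAs, overlapping genes and near-identical copies are uncertain, because the sources used here do not say how reads were assigned.

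Of the 10 dosage compensation genes, 3 were higher in INT males (30%, against 38.3% of all tested genes), 5 were lower (50%, against 27.2%) and 2 were not called. The X-linked noncoding RNA roX1 had 1507, 1771 and 1539.9 CPM in INT males and 46.2, 36.2 and 22.1 CPM in INT females (log2 5.53 ± 0.35, adjusted p = 8.23e-05). Its partner roX2 had 15.7, 15.3 and 16.2 CPM in INT males and 0.247, 0.461 and 0.189 CPM in INT females (log2 5.68 ± 0.34, adjusted p = 7.70e-05). Both were detected in every female library, and the males lay far above the females for each. msl-2, whose protein is made in males alone, had 19.7, 22.9 and 37.5 CPM in INT males and 7.64, 7.04 and 6.86 CPM in INT females (log2 1.89 ± 0.27, adjusted p = 0.00105). The males were again the higher sex without overlap.

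Of the protein-coding members, msl-2 alone was called higher in INT males. The scaffold gene msl-1 had 24.00, 30.3 and 32.2 CPM in INT males and 125, 134 and 108 CPM in INT females (log2 -2.08 ± 0.18, adjusted p = 0.000149), so that all 3 males lay below all 3 females. The helicase gene mle had 55.4, 55.5 and 56.01 CPM in INT males and 47.95, 48.6 and 42.7 CPM in INT females, with the males just above the females without overlap, and was not called (adjusted p = 0.111). The acetyltransferase gene mof had 7.92, 8.84 and 18.02 CPM in INT males and 18.4, 16.95 and 13.2 CPM in INT females, with INT male replicate 3 within the female range and the other males below it, and was not called (adjusted p = 0.256). Clamp, whose protein helps recruit the complex to X, was lower in INT males (log2 -1.004 ± 0.14, adjusted p = 0.000847), as was Unr, a partner of Sxl in repressing msl-2 (log2 -0.72 ± 0.15, adjusted p = 0.00499). The chromodomain subunit msl-3 and the kinase JIL-1 were lower by similar amounts, at log2 -0.53 ± 0.18 and -0.53 ± 0.16 (adjusted p = 0.037 and 0.024). Both of these calls rested on single libraries. They were lost without INT male replicate 2 (adjusted p = 0.108 for msl-3 and 0.0544 for JIL-1), without INT female replicate 1 (0.109 and 0.0811) and without INT female replicate 2 (0.135 and 0.0549), which left 3 genes lower each time. JIL-1 also lost its call without INT female replicate 3 (adjusted p = 0.0556).

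Of the 15 sex determination genes 14 were tested, and 2 were higher in INT males (14.3%, against 38.3% of all tested genes), 7 lower (50%, against 27.2%) and 5 not called. sisA had too few counts. Sxl had 132, 143 and 173 CPM in INT males and 499.8, 484 and 494 CPM in INT females (log2 -1.72 ± 0.16, adjusted p = 0.000215). dsx, whose spliced forms encode the male and the female factor, had 66.8, 76.5 and 63.04 CPM in INT males and 33.98, 31.9 and 37.2 CPM in INT females (log2 1.002 ± 0.15, adjusted p = 0.00112). In INT the sexes were thus apart in opposite directions at the top and near the end of the cascade. The same test called Sxl lower in NINT and F0 males (log2 -1.883 and -1.701, adjusted p = 3.96e-05 and 0.0005). It called dsx higher in NINT males (log2 0.518, adjusted p = 0.00932) but did not call it in F0 (log2 0.277, adjusted p = 0.519). Counts per gene do not separate the sex-specific spliced forms. dsf, a nuclear receptor gene of sexual behaviour, was the second gene higher in INT males, with 0.827, 0.8401 and 0.4900 CPM in INT males and 0.164, 0.198 and 0.0754 CPM in INT females (log2 2.26 ± 0.47, adjusted p = 0.00551).

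The germline regulators otu and ovo, both needed for the female germline and both on X, differed most within the list. otu had 0.451, 1.51 and 0.605 CPM in INT males and 247, 256 and 243 CPM in INT females (log2 -8.19 ± 0.53, adjusted p = 8.46e-05). ovo had 6.24, 8.92 and 10.5 CPM in INT males and 182, 165 and 133 CPM in INT females (log2 -4.23 ± 0.26, adjusted p = 7.90e-05). Every male library lay far below every female library for these. The splicing cofactors snf and fl(2)d and the dsx partner ix were also lower in INT males, at log2 -1.04 ± 0.18, -1.05 ± 0.14 and -1.34 ± 0.24 (adjusted p = 0.00216, 0.000886 and 0.00297). her, a zinc finger gene of the same pathway, had 9.25, 10.4 and 8.39 CPM in INT males and 13.1, 13.8 and 11.95 CPM in INT females (log2 -0.47 ± 0.17, adjusted p = 0.0425). That call was lost in 8 of the 18 fits, among them those without INT male replicate 1 or 2 (adjusted p = 0.0602 and 0.0653) and without INT female replicate 1 or 2 (0.107 and 0.133).

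tra, the target of Sxl, and fru, a target of tra, were not called. tra had 8.77, 4.75 and 3.52 CPM in INT males and 10.3, 9.51 and 5.81 CPM in INT females (adjusted p = 0.233). fru had 45.1, 53.5 and 40.8 CPM in INT males and 36.9, 33.1 and 42.00 CPM in INT females (adjusted p = 0.141). Males and females overlapped for both. tra2, vir and YT521-B were not called either (adjusted p = 0.066, 0.789 and 0.149), although the 3 males lay just below the 3 females for tra2.

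**Figure D1:**
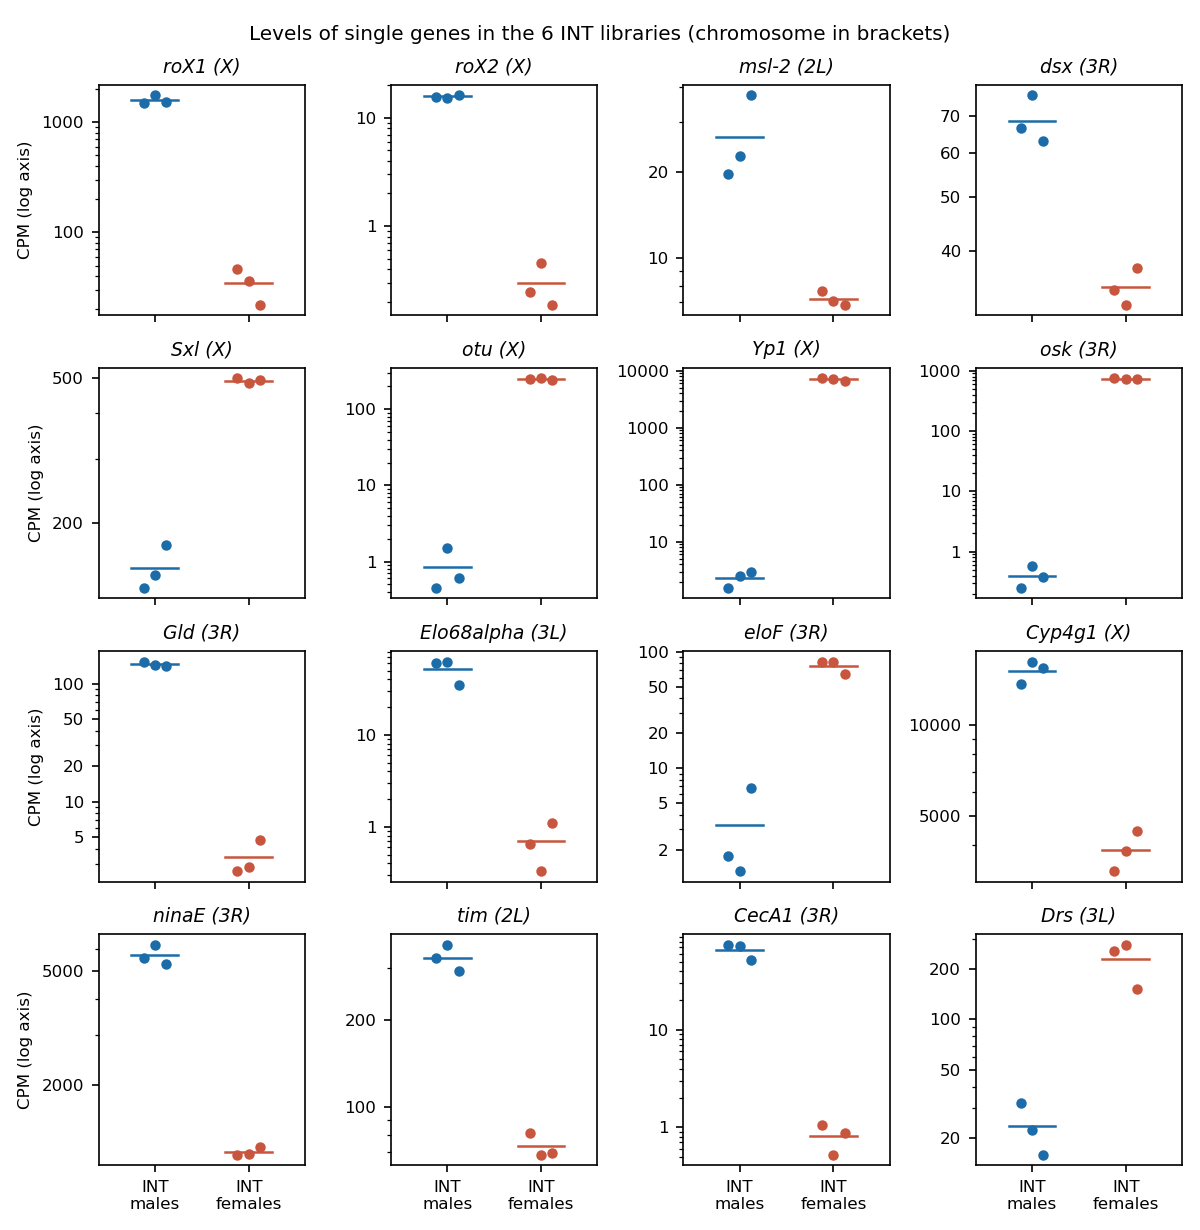
Levels of 16 genes in the 6 INT libraries, in TMM-scaled CPM on log axes that differ between panels. Points are libraries, with INT males at left and INT females at right, and lines are the means of 3. In each panel the 3 males stand apart from the 3 females, above them for roX1 and below them for Yp1.

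A smaller share of X-linked than of autosomal genes was higher in INT males, and a larger share was lower. Of 2288 tested X genes 728 (31.8%) were higher and 725 (31.7%) lower in INT males. Of 12241 autosomal genes 4817 (39.4%) were higher and 3243 (26.5%) lower. The even split on X moved with the fit. X genes were 29.5% higher and 35.1% lower with scaling on autosomal genes alone, and 26.4% higher and 39.0% lower with a filter of 5 CPM in 3 libraries. They were 28.9% higher and 39.1% lower with all 18 libraries in 1 fit, and 33.6% higher and 39.0% lower without INT male replicate 3. In each of the 18 fits X had the smaller share higher and the larger share lower. The median log2 fold change was -0.03 on X and 0.29 on the autosomes, a difference of -0.319 with an SD of 0.0417 over the 9 pairs of a male and a female library. X lay below the autosomes in each of the 9 pairs, by -0.254 to -0.388. These pairs share libraries and are no independent repeats.

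The autosomal arms also differed among themselves. Their medians were 0.39 on 2L (0.485 without the histone copies), 0.31 on 2R, 0.18 on 3L and 0.29 on 3R. The share of genes higher in INT males was 41.1% on 2L, 40.3% on 2R, 37.2% on 3L and 38.9% on 3R. Fitted rises of at least 16-fold made up 19.8% of genes on 2L and 13.2% on 2R. Falls of that size made up 5.42% on 2L, or 2.53% without the histone copies, and 0.965% on 2R. The small chromosome 4 had a median of 0.02, with 30 of 96 genes higher (31.2%) and 24 lower in INT males. Among protein-coding genes alone the medians were -0.03 for 2053 X genes and 0.27 for 10848 autosomal genes. These shares and medians describe the genes, and no chromosome was tested against the rest.

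**Figure D2:**
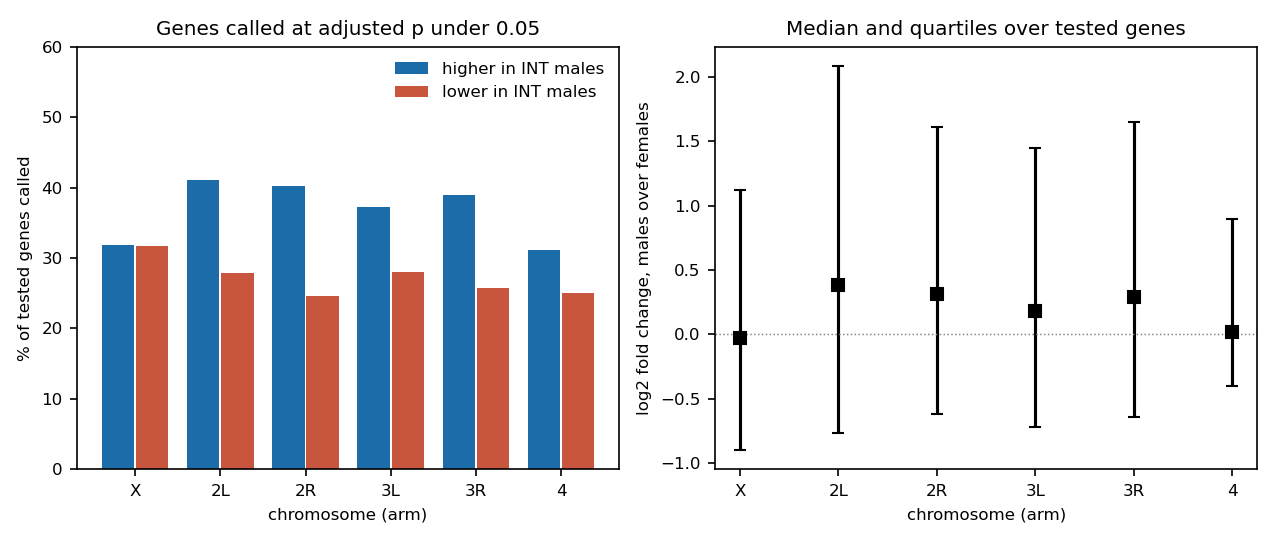
Calls and fold changes by chromosome arm. Left, bars give the percentage of tested genes higher or lower in INT males. Right, squares are the median log2 fold change and lines run from the lower to the upper quartile over genes. In this fit X has 31.8% higher and 31.7% lower, and every large autosomal arm has more genes higher than lower in INT males.

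The X median lay below the autosomal median at each level of expression. Genes were split into tertiles of their mean CPM over the 6 libraries, with limits at 7.74 and 32.0 CPM. The medians were 0.85 on X and 1.09 on the autosomes in the low tertile, -0.20 and 0.07 in the middle tertile, and -0.24 and 0.03 in the high tertile. In the high tertile 20.9% of X genes were higher in INT males against 30.4% of autosomal genes, and 38.2% of X genes were lower against 30.0%. Uncalled genes, which were chosen for small or uncertain differences, had medians of -0.03 on X (835 genes) and 0.04 on the autosomes (4181 genes). Cytosolic ribosomal protein genes, a list that also holds duplicates such as RpS19b and RpS5b, had medians of -0.27 for 14 X genes and -0.42 for 77 autosomal genes. In this list the X median was thus the higher of the medians.

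**Figure D3:**
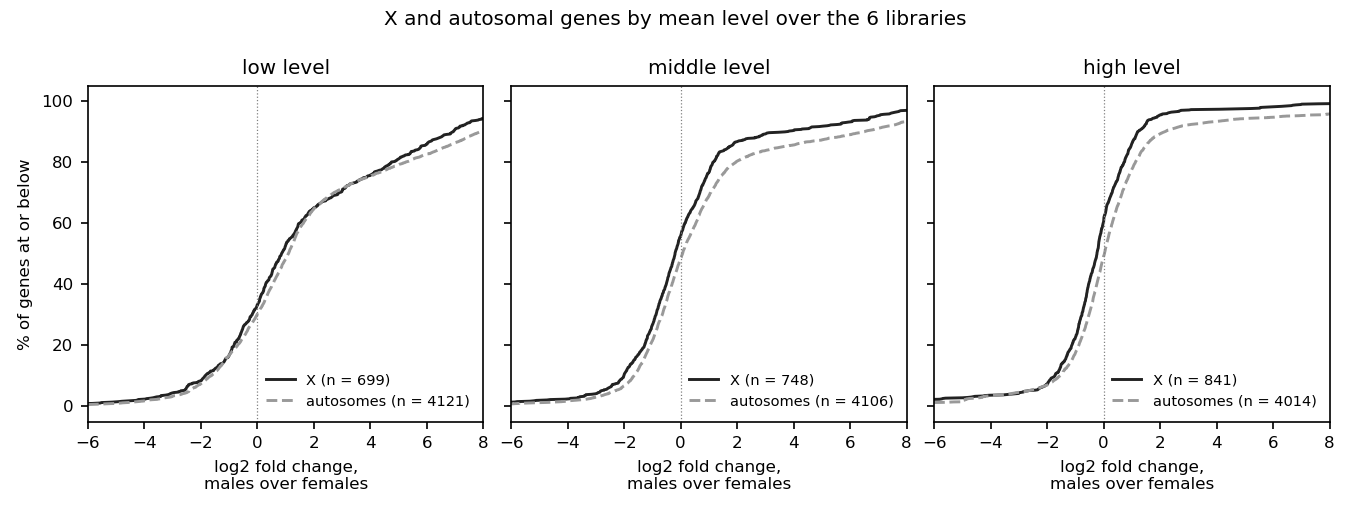
Cumulative percentage of genes at or below each log2 fold change, INT males over INT females, for X (solid) and autosomes (dashed) in tertiles of mean CPM. The horizontal axis ends at -6 and 8, and genes beyond it are not drawn. The X median lies left of the autosomal median in each panel, at -0.24 and 0.03 in the high tertile. In the low tertile the upper quartiles nearly meet, at 3.81 on X and 3.85 on the autosomes.

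Fitted rises of at least 16-fold in INT males were found for 264 X genes (11.5%) and 1867 autosomal genes (15.3%). Fitted falls of at least 16-fold were found for 65 X genes (2.84%) and 292 autosomal genes (2.39%). Copies of the replication-dependent histone genes on 2L made up 87 of these autosomal falls, and without the histone copies 205 autosomal genes (1.69%) fell that far. All 111 tested histone copies were lower in INT males, at a median log2 of -4.90 (-4.905), but many copies hold identical counts and are not separate measurements. Genes without a single count in the 3 female libraries numbered 413. Of these, 29 were on X (1.27% of tested X genes), 370 on autosomes (3.02%) and 14 on Y. They passed the count filter through the males alone, so these shares are a description. Genes without a count in the 3 male libraries numbered 7, with 1 on X and 6 on autosomes.

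The X genes with the largest rises were 6 genes at 0 in all INT females. The noncoding RNA CR42657 had 31.3, 24.3 and 12.7 CPM in INT males. CG12111 had 27.7, 25.4 and 12.3 CPM and CG43077 had 22.7, 20.05 and 10.2 CPM in INT males. CG12609 had 15.9, 14.02 and 8.45 CPM, CG2574 had 14.1, 11.1 and 5.76 CPM and CG15742 had 13.6, 9.18 and 4.96 CPM in INT males. INT male replicate 3 was the lowest male for all 6. Against a floor of 3 counts over the 3 female libraries, CR42657 was at least 628-fold, CG12111 at least 598-fold and CG43077 at least 484-fold higher in INT males. For CG12609, CG2574 and CG15742 these bounds were 350.4-fold, 284-fold and 256-fold (adjusted p for the 6 genes at most 0.000674).

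The X genes with the largest falls belong to egg production. The chorion gene Cp36 had 0, 0.145 and 0.0865 CPM in INT males and 484, 700.2 and 559 CPM in INT females. Its neighbour Cp38 had 0.401, 0.2897 and 0.259 CPM in INT males and 743, 1169 and 1073 CPM in INT females. The vitelline membrane gene Vml had 0.125, 0.232 and 0 CPM in INT males and 197, 186 and 195 CPM in INT females. Every male was far below every female for these 3 genes. The antisense RNA CR45601 had 0.827, 0.869 and 1.44 CPM in INT males and 3452, 3474 and 3454 CPM in INT females and lies inside Yp1 on the opposite strand (X, 10054235 to 10055109, dm6), and its reads cannot be told apart from those of Yp1 here.

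X genes took 14.87%, 16.77% and 16.92% of the used counts in INT males and 24.27%, 21.81% and 23.15% in INT females. Much of that gap lay in few entries. The entries with the highest CPM among those lower in INT males were CR40962, CR40963 and CR40976, which stand inside the ribosomal DNA block of X and have no match in the reference annotation. CR40962 had 402, 4324 and 2009.8 CPM in INT males and 23213, 11911 and 19102 CPM in INT females (log2 -3.01 ± 0.82, adjusted p = 0.0167). CR40963 was lower as well (log2 -2.99 ± 0.86, adjusted p = 0.0204), a call lost without INT female replicate 1 (adjusted p = 0.0501), and so was CR40976 (log2 -4.25 ± 1.21, adjusted p = 0.0192). Without INT male replicate 2, the highest male, the log2 was -3.90 (-3.903), -3.87 and -5.60 (-5.599) for these entries in that order, and CR40976 was at -3.56 without INT female replicate 1. Without these 3 entries and the yolk protein genes, X took 14.8%, 15.93% and 16.55% in INT males and 17.15%, 17.89% and 17.56% in INT females. The difference of the means was -1.775 percentage points. The sexes still did not overlap, and an exact two-sided permutation test gave p = 0.1, the smallest that 3 against 3 libraries allow.

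Males carry a Y chromosome, whose few genes serve spermatogenesis. Of 38 tested Y genes 35 were higher (92.1%, against 38.3% of all tested genes) and 1 was lower in INT males. As females lack a Y, most Y genes entered the test through their counts in males. A high share follows from that, and the shares given here are a description. The list of fertility genes had 14 of 21 entries tested, of which 12 were higher (85.7%) and 1 lower in INT males. The median log2 was 8.08, or 5.71 with genes at 0 in females set to their bound. Most were at a few CPM in whole males. With a filter of 5 CPM in 3 libraries only 1 entry was left to test, and it was called lower in INT males (log2 -1.499).

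The axonemal dynein gene kl-3 had 5.26, 6.200 and 2.31 CPM in INT males and 0 in all INT females, at least 125-fold higher (adjusted p = 0.001). kl-5 had 5.11, 5.42 and 4.01 CPM in INT males and 0.205, 0 and 0 CPM in INT females (log2 6.18 ± 0.89, adjusted p = 0.00108). kl-2 had 4.81, 4.98 and 2.08 CPM in INT males and 0.0822, 0.0658 and 0 CPM in INT females (log2 6.22 ± 0.73, adjusted p = 0.000465). For the dyneins every male lay above every female. Ory and ARY were at 0 in all INT females and at 2.205, 2.23 and 1.27 and 8.47, 6.98 and 3.49 CPM in INT males, at least 51.9-fold and 174-fold higher (adjusted p = 0.00082 and 0.000661). A further 6 entries, of the genes CCY (CG40948), PRY (CG40930, CG41367 and CG42619) and WDY (CG40245 and CG41020), were higher in INT males, with adjusted p between 0.00567 and 0.0272. The PRY entries were highest in INT male replicate 3, as for CG42619 with 0.376, 0.5504 and 4.96 CPM in INT males and 0 in all INT females. Its call was lost without INT female replicate 2 or 3 (adjusted p = 0.0526 and 0.0596).

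A few Y entries had reads in females. Pp1-Y2, with 246 counts in INT males and 3 in INT females, had a male over female ratio of 61.0 (95% exact binomial interval 20.6 to 298, for counting error only). Ppr-Y had 3.21, 3.24 and 1.07 CPM in INT males and 0, 0 and 3.02 CPM in INT females and was not called (adjusted p = 0.462), as INT female replicate 3 lay within the male range. fdy went the other way, with 10.1, 10.6 and 13.8 CPM in INT males and 34.8, 36.2 and 23.6 CPM in INT females (log2 -1.46 ± 0.23, adjusted p = 0.00159). Females have no Y chromosome, so the origin of reads counted at these genes in females is uncertain.

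INT was chosen as the group whose males hold almost no yolk transcripts. The levels of the yolk protein genes and of their receptor gene yl are therefore given as a description without a test. All 4 genes of the yolk list lie on X, and their median log2 was -10.91. Yp1, made in fat body and follicle cells, had 1.55, 2.49 and 2.998 CPM in INT males and 7365, 7091 and 6683 CPM in INT females (log2 -11.55 ± 0.43). Yp2 had 1.05, 2.64 and 2.51 CPM in INT males and 6418, 6029.6 and 6157 CPM in INT females (log2 -11.55 ± 0.54). Yp3 had 8.54, 10.7 and 9.17 CPM in INT males and 3031, 3268 and 3097 CPM in INT females (log2 -8.37 ± 0.24). The 3 males held similar trace levels and the 3 females similar high levels. yl, the oocyte receptor that takes up yolk, had 0.626, 0.898 and 0.346 CPM in INT males and 963, 739.8 and 622 CPM in INT females (log2 -10.27 ± 0.48).

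Eggshell genes were lower in INT males too. All 15 chorion genes, 8 of them on X, were lower in INT males (100%, against 27.2% of all tested genes). Their median log2 was -9.58. Of the 12 vitelline membrane and early eggshell genes 11 were lower (91.7%), at a median of -9.50 (-9.499). The vitelline membrane gene Vm26Aa had 0, 0.174 and 0 CPM in INT males and 1713, 1543 and 1193 CPM in INT females, the largest fitted fall among called genes with at least 5 CPM in 1 sex (log2 -14.60 ± 1.05, adjusted p = 0.000108). Its 6 counts in males were all in INT male replicate 2, so this value rests on that library. Vm26Ab and Vm34Ca were lower at log2 -12.63 and -12.69 (adjusted p = 2.93e-05 and 4.35e-05). The chorion gene Cp16 had 2 counts in INT males and 19866 in INT females, a female over male ratio of 13342.5 (95% interval 3693 to 110181). Cp19 had 0.0501, 0.0869 and 0 CPM in INT males and 521, 541 and 345 CPM in INT females (log2 -13.20 ± 0.62, adjusted p = 5.31e-05). The exception was tsl, a cue for the ends of the embryo, which was higher in INT males with 10.8, 15.8 and 16.2 CPM in INT males and 9.66, 8.62 and 7.65 CPM in INT females (log2 0.72 ± 0.22, adjusted p = 0.0245). This call was lost without INT male replicate 2, INT female replicate 2 or INT female replicate 3 (adjusted p = 0.0837, 0.0769 and 0.0746).

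Genes of the ovarian germline were lower in INT males as well, by smaller folds. Of 31 maternal and oocyte genes 27 were lower (87.1%, against 27.2% of all tested genes) and none was higher (against 38.3%). The median log2 was -4.27, while without INT male replicate 3 edgeR called 1 gene higher. osk, which organises the pole of the oocyte, had 0.251, 0.579 and 0.375 CPM in INT males and 747, 740.5 and 732 CPM in INT females (log2 -10.84 ± 0.39, adjusted p = 3.05e-05). The maternal genes gnu and alphaTub67C were lower at log2 -9.69 and -9.67 (adjusted p = 2.93e-05 and 2.94e-05). swa, an X-linked gene of RNA localisation, and mtrm, a meiotic regulator, were lower at -8.67 and -6.55 (adjusted p = 2.94e-05 and 3.05e-05). The other 4 members were not called, grk and tud among them. grk, the ligand by which the oocyte signals to follicle cells, had 20.2, 22.1 and 16.6 CPM in INT males and 16.1, 17.8 and 18.5 CPM in INT females (adjusted p = 0.392), and tud, of the germ plasm, had 229, 266 and 248 CPM in INT males and 255, 249 and 249 CPM in INT females (adjusted p = 0.908). The sexes overlapped for both.

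The piRNA pathway silences transposons in the germline. Of its 26 genes 22 were lower in INT males (84.6%, against 27.2% of all tested genes) and none was higher. The median log2 was -3.12. piwi had 7.04, 7.07 and 7.35 CPM in INT males and 148, 152 and 149 CPM in INT females (log2 -4.39 ± 0.14, adjusted p = 2.93e-05). aub had 3.86, 3.68 and 2.91 CPM in INT males and 59.1, 57.4 and 56.7 CPM in INT females (log2 -4.05 ± 0.17, adjusted p = 4.65e-05). rhi, which marks piRNA clusters in the ovary, was lower at log2 -5.54 ± 0.27 (adjusted p = 5.31e-05). Males were below females in every library for all 3. All 37 genes of DNA replication and the cell cycle were lower in INT males (100%, against 27.2%), at a median of -3.72. The sliding clamp PCNA had 3.71, 3.100 and 3.14 CPM in INT males and 102, 91.3 and 77.3 CPM in INT females (log2 -4.76 ± 0.19, adjusted p = 3.88e-05). CycE, which drives entry into S phase, had 10.1, 9.94 and 8.33 CPM in INT males and 192, 187 and 164 CPM in INT females (log2 -4.26 ± 0.17, adjusted p = 3.62e-05). The mitotic phosphatase stg had 2.73, 3.07 and 4.84 CPM in INT males and 240.2, 232 and 215 CPM in INT females (log2 -6.01 ± 0.29, adjusted p = 5.31e-05).

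Genes of the female reproductive tract were less uniform. Of 7, 3 were lower in INT males (42.9%, against 27.2% of all tested genes) and 4 were not called, and 1 was called higher without INT male replicate 1 or without INT male replicate 2. The spermathecal protease Send1 had 0.952, 0 and 0 CPM in INT males and 45.2, 37.6 and 73.7 CPM in INT females (log2 -7.28 ± 1.25, adjusted p = 0.00232). Send2 had 0.1002, 0.203 and 0.0288 CPM in INT males and 3.66, 5.66 and 11.1 CPM in INT females (log2 -5.898 ± 0.71, adjusted p = 0.000516). Hr39, a nuclear receptor needed for spermathecal glands, had 12.6, 12.2 and 12.9 CPM in INT males and 34.8, 34.2 and 33.2 CPM in INT females (log2 -1.44 ± 0.13, adjusted p = 0.000179). The reads of Send1 in males came from INT male replicate 1 alone. For these 3 genes the males lay below the females without overlap. SPR, the receptor of sex peptide, had 9.42, 12.1 and 16.3 CPM in INT males and 12.1, 15.9 and 18.2 CPM in INT females, with overlap between the sexes, and was not called (adjusted p = 0.362).

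Sperm genes were higher in INT males without exception in the list examined. All 31 sperm tail and sperm chromatin genes were higher (100%, against 38.3% of all tested genes), at a median log2 of 9.21. Their levels summed to 7555, 5798 and 2852 CPM in INT males and to 41.95, 18.2 (18.236) and 18.2 (18.249) CPM in INT females. All 27 testis paralogs of general genes were higher too, at a median of 7.74, or 7.63 with genes at 0 in females set to their bound. None of the sperm genes and 1 of the paralogs, the proteasome gene Prosbeta2R1, lies on X.

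S-Lap5, a leucyl aminopeptidase of sperm, had 50.2, 40.9 and 20.4 CPM in INT males and 0.0822, 0.0329 and 0.0754 CPM in INT females (log2 9.14 ± 0.56, adjusted p = 7.75e-05). Tektin-C, of the sperm axoneme, had 34.1, 29.7 and 14.9 CPM in INT males and 0.123, 0.263 and 0.113 CPM in INT females (log2 7.23 ± 0.51, adjusted p = 0.000105). janB had 98.2, 71.96 and 38.02 CPM in INT males and 1.11, 0.625 and 0.905 CPM in INT females (log2 6.31 ± 0.47, adjusted p = 0.000113). In each case the males were far above the females, and INT male replicate 3 was the lowest male. RpL22-like, a ribosomal protein of the germline, had 21.8, 20.3 and 12.2 CPM in INT males and 0.205, 0.0988 and 0.189 CPM in INT females (log2 6.78 ± 0.41, adjusted p = 7.70e-05). ttm2, a testis copy of a mitochondrial import gene, had 36.5, 27.5 and 13.3 CPM in INT males and 0.0822, 0.0329 and 0.0377 CPM in INT females (log2 8.92 ± 0.62, adjusted p = 0.0001). Low female counts limit the ratios of other genes. djl had 1 count in INT females and a male over female ratio of 3189 (95% interval 572 to 125970). Hex-t2 had 3 counts and a ratio of 883 (302 to 4283), and Arp53D had 1 count and a ratio of 1978 (355 to 78157.5).

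Genes that act before sperm form had smaller folds. Of 18 meiotic arrest and spermatocyte genes 15 were higher (83.3%, against 38.3% of all tested genes) and 2 lower in INT males (11.1%, against 27.2%). The median log2 was 3.49. bol, a translational regulator of meiotic entry, had 356, 328 and 253 CPM in INT males and 44.8, 38.3 and 56.6 CPM in INT females (log2 2.75 ± 0.23, adjusted p = 0.000139). bgcn, a partner of bam, had 20.5, 23.00 and 11.04 CPM in INT males and 0.575, 0.263 and 0.4902 CPM in INT females (log2 5.37 ± 0.44, adjusted p = 0.000139). topi, a meiotic arrest gene, had 12.6, 10.2 and 6.69 CPM in INT males and 0.575, 0.362 and 0.4902 CPM in INT females (log2 4.37 ± 0.36, adjusted p = 0.000141). The sexes did not overlap for any of these. The exceptions were bam and twe. bam, the differentiation factor of germline stem cell daughters, had 3.81, 3.59 and 1.84 CPM in INT males and 12.04, 13.7 and 11.99 CPM in INT females (log2 -2.03 ± 0.31, adjusted p = 0.00134). twe, the meiotic phosphatase, had 35.5, 29.3 and 18.8 CPM in INT males and 69.4, 76.04 and 52.9 CPM in INT females (log2 -1.25 ± 0.27, adjusted p = 0.00645).

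INT male replicate 3 was the lowest male for each of the 31 sperm genes, the 27 paralogs and the 15 meiotic genes higher in males. Without that library, all 31 sperm genes, all 27 paralogs and 15 meiotic genes were still higher in males. INT female replicate 1 had the highest sum of sperm genes among the females. Without it all 31 sperm genes and all 27 paralogs were higher, and with genes at 0 in the other females set to their bound the medians were 10.73 and 7.54 (7.535), against 9.21 and 7.63. With a filter of 5 CPM in 3 libraries 9 of the 18 meiotic genes were tested, and 7 were higher.

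Genes of the accessory gland and the ejaculatory duct, which make seminal fluid, were higher in INT males in 32 of 33 and 7 of 7 cases. These shares, 97.0% and 100%, stand beside 38.3% of all tested genes. The median log2 was 9.39 for the accessory gland list, or 9.25 with genes at 0 in females set to their bound, and 9.17 for the duct list. Accessory gland genes summed to 20984, 22175 and 10633 CPM in INT males and to 204, 139 and 131 CPM in INT females. Duct genes summed to 15144.5, 14356 and 4239.6 CPM in INT males and to 715, 731 and 787 CPM in INT females. INT male replicate 3 was the lowest male for every gene that was higher in both lists.

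aqrs, needed for sex peptide to reach stored sperm, had 60.7, 60.5 and 58.7 CPM in INT males and 0 in all INT females, the largest fitted rise among called genes with at least 5 CPM in 1 sex. It was at least 1625-fold higher (adjusted p = 5.79e-05). The next largest rises over all chromosomes, CG5614, Dic2, CG10029, CG14739 and CG30447, were also at 0 in INT females and at least 792-fold to 1421-fold higher in INT males. Acp29AB, a seminal lectin, had 45.9, 46.9 and 36.2 CPM in INT males and 0.205, 0.0329 and 0 CPM in INT females (log2 9.097 ± 0.63, adjusted p = 0.000102). lectin-46Ca, of the sex peptide network, had 179, 162 and 136 CPM in INT males and 8.83, 11.3 and 10.3 CPM in INT females (log2 3.97 ± 0.19, adjusted p = 5.31e-05). Every male lay above every female for both lectins. Gld, glucose dehydrogenase of the ejaculatory duct and also of the female tract, had 153, 143 and 142 CPM in INT males and 2.59, 2.83 and 4.75 CPM in INT females (log2 5.43 ± 0.29, adjusted p = 6.58e-05). Dup99B, a ductal relative of sex peptide, had 754, 672 and 353 CPM in INT males and 1.11, 0.0329 and 0 CPM in INT females (log2 10.66 ± 1.405, adjusted p = 0.000751).

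Obp56e was the 1 gene of the accessory gland list that was lower in INT males, with 31.1, 29.3 and 17.7 CPM in INT males and 67.9, 63.2 and 38.8 CPM in INT females (log2 -1.12 ± 0.30, adjusted p = 0.0157), and the call was lost without INT female replicate 1 or 2 (adjusted p = 0.0515 and 0.0510). INT female replicate 1 had 1124 counts of the male tract gene Met75Ca, against 0 in both other female libraries. Of the 33 accessory gland genes 3 were at 0 counts in that library, against 18 and 15 in the other female libraries. Without it, 32 of the 33 genes were still higher in males. Then 13 were at 0 in both other females, and with these set to their bound the median log2 was 11.15, against 9.25 with all libraries. The duct list, treated likewise, had all 7 genes higher at a median of 13.44, against 9.17. Of the single genes, the log2 was 10.98 for Acp29AB and 14.76 for Dup99B without that library, with 1 count of each left in females.

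Cuticular hydrocarbons are contact pheromones made in oenocytes. The list of their enzymes also holds Elo68alpha, a gene linked to another pheromone. Of its 10 tested genes 6 were higher (60%, against 38.3% of all tested genes) and 2 lower in INT males (20%, against 27.2%). The desaturase Fad2, of female dienes, had 0.351, 0 and 7.41 CPM in INT males and 209, 243 and 195 CPM in INT females (log2 -6.39 ± 1.64, adjusted p = 0.0128). The elongase eloF, of the same pathway, had 1.78, 1.304 and 6.77 CPM in INT males and 82.9, 81.97 and 65.4 CPM in INT females (log2 -4.55 ± 0.67, adjusted p = 0.00122). INT male replicate 3 was the highest male for both, and without it the log2 was -10.15 for Fad2 and -5.63 for eloF. The same test called both lower in NINT males (log2 -4.727 and -4.225, adjusted p = 0.000585 and 0.000239). In F0 neither was called (log2 -2.205 and -2.232, adjusted p = 0.303 and 0.0608). That does not show a difference between INT and F0. edgeR's test of the difference between these sex differences called 0 of 15140 genes. Elo68alpha, the elongase gene linked to the male pheromone cis-vaccenyl acetate, had 60.6, 62.4 and 34.4 CPM in INT males and 0.657, 0.329 and 1.09 CPM in INT females (log2 6.25 ± 0.50, adjusted p = 0.00013).

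Cyp4g1 on X, which carries out the last step of hydrocarbon synthesis, had the highest CPM of all genes higher in INT males, with 13749.8, 16261 and 15545 CPM in INT males and 3268, 3816 and 4462 CPM in INT females (log2 1.98 ± 0.24, adjusted p = 0.000517). Next in CPM, which is not corrected for gene length, were the male tract genes Met75Ca and Met75Cb, which hold identical counts, with 16812, 10996 and 4263 CPM in INT males and 46.2, 0 and 0 CPM in INT females (adjusted p = 0.0272, and 0.0512 without INT male replicate 1). The ubiquitin gene Ubi-p63E had 8687, 8761 and 8963 CPM in INT males and 3038, 3685 and 3710.3 CPM in INT females (log2 1.34 ± 0.21, adjusted p = 0.00142). CG1678 had 8099, 10256 and 3738 CPM in INT males and 3714, 3026 and 1817 CPM in INT females (log2 1.37 ± 0.45, adjusted p = 0.0327). Its call was lost without INT male replicate 1 or 2 (adjusted p = 0.106 and 0.0939) and without INT female replicate 2 or 3 (0.0864 and 0.0867).

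Of 7 sex-biased fat body and head genes 4 were higher (57.1%, against 38.3% of all tested genes) and 2 lower in INT males (28.6%, near the background of 27.2%). fit, a fat body peptide linked to protein satiety, had 0.626, 0.637 and 0.317 CPM in INT males and 46.6, 39.8 and 22.1 CPM in INT females (log2 -6.08 ± 0.43, adjusted p = 0.000106). The storage protein gene Lsp2 had 2.86, 2.93 and 4.87 CPM in INT males and 57.9, 58.00 and 57.1 CPM in INT females (log2 -4.02 ± 0.26, adjusted p = 8.46e-05). Both were low in each male and higher in each female. The male side held to, a feeding and courtship gene, with 98.5, 108 and 96.1 CPM in INT males and 32.3, 29.2 and 19.8 CPM in INT females (log2 1.89 ± 0.21, adjusted p = 0.00038). sxe2, a lipase gene of the head, had 39.9, 44.6 and 28.05 CPM in INT males and 10.8, 5.79 and 9.73 CPM in INT females (log2 2.100 ± 0.30, adjusted p = 0.00102). Obp99b, an odorant-binding protein gene of the fat body, had 8.74, 37.5 and 21.5 CPM in INT males and 1.19, 1.32 and 1.17 CPM in INT females (log2 4.195 ± 0.56, adjusted p = 0.000797).

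Of 18 tested pheromone sensing genes 10 were higher (55.6%, against 38.3% of all tested genes) and 2 lower in INT males (11.1%, against 27.2%). With a filter of 5 CPM in 3 libraries 2 of 8 were higher, at a median log2 of 0.157 against 1.003 over the 18, and without INT male replicate 1 there were 7 of 18 higher. CheB93a and CheB93b, of a family of taste proteins, had 2.98, 2.87 and 2.02 and 1.68, 1.62 and 2.54 CPM in INT males. Each had 1 count over the INT females, for male over female ratios of 214 (95% interval 38.2 to 8498) and 157 (27.9 to 6233). CheB38b was at 0 in INT females and at least 103-fold higher in INT males (adjusted p = 0.000932). Orco, the coreceptor of odorant receptors, had 6.87, 8.43 and 7.67 CPM in INT males and 2.75, 2.699 and 3.13 CPM in INT females (log2 1.42 ± 0.20, adjusted p = 0.00105). The males were higher without overlap for each of these.

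ppk25, a channel subunit of pheromone taste neurons, was lower in INT males, with 5.69, 5.94 and 5.91 CPM in INT males and 13.5, 10.3 and 11.7 CPM in INT females (log2 -1.02 ± 0.18, adjusted p = 0.00262). Its partner ppk29 was called lower as well (log2 -0.96 ± 0.33, adjusted p = 0.0378), but lost the call in 9 of the 18 fits, including each fit without 1 of the libraries other than INT male replicate 3 (adjusted p = 0.0543 to 0.0936). Without INT male replicate 3 a total of 4 genes of the list were lower.

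Of 9 tested insulin-like peptide genes and partners 2 were higher and 2 lower in INT males (22.2% each, beside 38.3% and 27.2% of all tested genes). Ilp2, from the insulin-producing neurons, had 14.5, 14.8 and 7.12 CPM in INT males and 3.99, 2.86 and 2.300 CPM in INT females (log2 1.99 ± 0.37, adjusted p = 0.00315). ImpL2, an inhibitor that binds insulin, had 172, 134 and 258 CPM in INT males and 63.03, 72.98 and 77.8 CPM in INT females (log2 1.398 ± 0.26, adjusted p = 0.00347). Ilp8, which in adults is made in the ovary, had 1.93, 0.898 and 0.9800 CPM in INT males and 13.8, 10.3 and 6.45 CPM in INT females (log2 -2.996 ± 0.44, adjusted p = 0.00113). No male overlapped a female for these 3. Ilp6, the fat body insulin on X, had 9.396, 7.098 and 7.75 CPM in INT males and 17.5, 18.5 and 15.6 CPM in INT females (log2 -1.09 ± 0.18, adjusted p = 0.00187).

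Genes of the eye were higher in INT males in 11 of 12 cases (91.7%, against 38.3% of all tested genes). The median log2 was 1.34, beside 0.24 over all tested genes. The rhodopsin gene ninaE had 5579, 6196 and 5315 CPM in INT males and 1137, 1139 and 1212 CPM in INT females (log2 2.29 ± 0.19, adjusted p = 0.000149). Rh4, a second rhodopsin, had 161, 166 and 127 CPM in INT males and 24.98, 29.8 and 32.7 CPM in INT females (log2 2.38 ± 0.18, adjusted p = 0.000121). The arrestin gene Arr2 had 1372, 1396 and 918 CPM in INT males and 387, 387 and 394 CPM in INT females (log2 1.66 ± 0.22, adjusted p = 0.000705). All males lay above all females for these genes. ninaC, a photoreceptor myosin, had 213, 208 and 157 CPM in INT males and 95.6, 114 and 182 CPM in INT females, with INT female replicate 3 within the male range, and was not called (adjusted p = 0.111).

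Neuronal genes had 5 of 10 higher (50%, beside 38.3% of all tested genes) and 5 not called, at a median log2 of 0.69, beside 0.24 over all tested genes. Most other fits called 4 of them, and without INT male replicate 3 edgeR called 1 gene lower. nSyb, of synaptic vesicles, had 293, 308 and 291 CPM in INT males and 80.4, 77.3 and 98.4 CPM in INT females (log2 1.802 ± 0.16, adjusted p = 0.000161). Syt1, the calcium sensor of release, had 260.4, 295 and 296 CPM in INT males and 108, 114 and 161 CPM in INT females (log2 1.15 ± 0.20, adjusted p = 0.00236). The active zone gene brp was called (log2 0.71 ± 0.26, adjusted p = 0.0477) but lost the call in 15 of the 18 fits, including those without any single library other than INT male replicate 3 (adjusted p = 0.0711 to 0.146). Glial genes had 4 of 9 higher in INT males (44.4%, near the 38.3% of all tested genes), among them wrapper and nrv2 at log2 1.64 ± 0.25 and 1.25 ± 0.22 (adjusted p = 0.00135 and 0.00242), and 2 of 9 without INT female replicate 1 or without INT female replicate 2.

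The clock genes were all called, 7 higher (70%, against 38.3% of all tested genes) and 3 lower in INT males (30%, near the 27.2% of all). The sexes did not overlap for any of the 10, and they did not overlap for 73.7% of all tested genes either. tim, a repressor in the loop, had 326, 361 and 293 CPM in INT males and 81.2, 68.5 and 69.6 CPM in INT females (log2 2.16 ± 0.16, adjusted p = 0.000113). vri and Pdp1, of the second loop, were higher at log2 1.42 ± 0.14 and 1.44 ± 0.17 (adjusted p = 0.000216 and 0.000511), and so was the activator Clk at 1.33 ± 0.14 (adjusted p = 0.000297). Its partner cyc went the other way, with 16.9, 13.7 and 20.6 CPM in INT males and 48.6, 50.8 and 41.4 CPM in INT females (log2 -1.46 ± 0.20, adjusted p = 0.000805). The kinase gene dco had 96.4, 109 and 132 CPM in INT males and 415, 435 and 324 CPM in INT females (log2 -1.798 ± 0.20, adjusted p = 0.000359). The repressor cwo was lower at log2 -0.47 ± 0.13 (adjusted p = 0.0164), a call lost without INT male replicate 2 or INT female replicate 1 (adjusted p = 0.0604 and 0.0755). The labels give no hour of collection.

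Of 13 heat shock genes 9 were higher (69.2%, against 38.3% of all tested genes) and none lower in INT males. The median log2 was 3.38, beside 0.24 over all tested genes. Hsp68 had 549.8, 237 and 325 CPM in INT males and 18.2, 23.7 and 7.35 CPM in INT females (log2 4.495 ± 0.56, adjusted p = 0.000576). The same test within the other groups did not call Hsp68, in NINT (log2 0.993, adjusted p = 0.0731) or in F0 (log2 1.176, adjusted p = 0.162). A call in INT alone does not show that the groups differ. edgeR's test of the difference between the sex differences of INT and F0 called 0 of 15140 genes. No such test is given here for Hsp68 with NINT. The small heat shock gene Hsp22 had 204, 95.1 and 227 CPM in INT males and 17.1, 14.3 and 10.2 CPM in INT females (log2 3.66 ± 0.40, adjusted p = 0.00034). Hsp70Bb, whose reads may be shared with other Hsp70 copies, had 3471, 1950.2 and 2737 CPM in INT males and 235, 154 and 43.7 CPM in INT females (log2 4.24 ± 0.65, adjusted p = 0.00145). INT male replicate 2 was the lowest male and INT female replicate 3 the lowest female for Hsp22 and Hsp70Bb, and the sexes did not overlap.

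Of 13 tested antimicrobial peptide genes 6 were higher (46.2%, near the 38.3% of all tested genes) and 1 lower in INT males. The cecropin gene CecA1 had 73.9, 71.8 and 52.1 CPM in INT males and 1.07, 0.527 and 0.867 CPM in INT females (log2 6.33 ± 0.33, adjusted p = 6.25e-05). Drs, an antifungal peptide gene, had 32.1, 22.3 and 15.9 CPM in INT males and 255, 276 and 152 CPM in INT females (log2 -3.28 ± 0.36, adjusted p = 0.000345). The higher genes numbered 3 without INT male replicate 3, 3 without INT female replicate 3 and 3 with all 18 libraries in 1 fit, and the lower genes 2 without INT male replicate 1.

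Malpighian tubule genes had 5 of 7 higher in INT males (71.4%, against 38.3% of all tested genes) and 1, the zinc transporter ZnT35C (log2 -0.85 ± 0.15, adjusted p = 0.00292), lower. Without INT female replicate 1 or without INT female replicate 2, 3 of 7 were higher, a share near that of all genes. Midgut genes had 4 of 9 higher (44.4%, near the 38.3% of all tested genes) and none lower, while 2 were lower without INT male replicate 3. The maltase gene Mal-A1 had 597, 1001 and 1683 CPM in INT males and 43.7, 25.8 and 66.2 CPM in INT females (log2 4.596 ± 0.55, adjusted p = 0.00049). The amylase copies Amy-p and Amy-d, whose reads may be shared, were higher at log2 1.61 ± 0.30 and 1.48 ± 0.26 (adjusted p = 0.00332 and 0.0024).

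Muscle genes summed to 9518, 9934 and 8075 CPM in INT males and to 6622.5, 10047 and 32522 CPM in INT females, where replicate 3 stood out. Of 13, 3 were called lower in INT males (23.1%, near the 27.2% of all tested genes). TpnC4, a troponin C of flight muscle, had 2.03, 1.74 and 1.18 CPM in INT males and 20.1, 37.2 and 285 CPM in INT females (log2 -6.105 ± 1.17, adjusted p = 0.00374). The flight muscle actin Act88F had 12.3, 11.7 and 10.8 CPM in INT males and 25.97, 78.4 and 2138 CPM in INT females (log2 -6.01 ± 1.73, adjusted p = 0.0204). fln, of flight muscle thick filaments, was the third gene (log2 -6.59 ± 1.78, adjusted p = 0.0157). These folds rested on INT female replicate 3, without which the log2 was -4.12 for TpnC4, -2.17 for Act88F and -2.64 for fln. The Act88F call was lost without INT male replicate 1 or 2 (adjusted p = 0.0611 and 0.0621), and that of fln without INT male replicate 2 (0.0530), which left 1 gene lower. Without INT female replicate 1 there were 6 genes lower. Without INT female replicate 3 there was 1 gene higher, and the median log2 of the list was 0.020 (0.0204), against -1.08 with all libraries.

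Hemocyte genes summed to 245, 356 and 714 CPM in INT males and to 753, 715 and 804 CPM in INT females. Of 10, the basement membrane collagens vkg and Cg25C were lower in INT males (20.0%, beside 27.2% of all tested genes). vkg had 43.4, 83.2 and 122 CPM in INT males and 239, 204 and 243 CPM in INT females (log2 -1.46 ± 0.36, adjusted p = 0.0111). Cg25C had 51.2, 112 and 184 CPM in INT males and 288, 299 and 334 CPM in INT females (log2 -1.41 ± 0.43, adjusted p = 0.0256), a call lost without INT male replicate 2 (adjusted p = 0.0703) or without INT female replicate 1, 2 or 3 (0.0539, 0.0599 and 0.0712), which left 1 gene lower each time. Without INT male replicate 3, 8 of 10 were lower. That library had 66.0 (66.01) CPM of the hemocyte receptor gene NimC1, against 4.33 and 5.13 CPM in the other males and 5.79, 7.67 and 9.31 CPM in INT females.

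Of 7 tested fat body genes 2 were higher and 3 lower in INT males. tobi, a glucosidase gene, had 154, 291 and 704 CPM in INT males and 20.6, 12.5 and 16.02 CPM in INT females (log2 4.55 ± 0.62, adjusted p = 0.000856). Cyp6w1 had 41.6, 66.6 and 523 CPM in INT males and 15.9, 13.5 and 15.01 CPM in INT females (log2 3.83 ± 1.01, adjusted p = 0.014). INT male replicate 3 was the highest male for both, and without it the log2 was 3.76 for tobi and 1.87 for Cyp6w1. The call of Cyp6w1 was lost without INT female replicate 2 or 3 (adjusted p = 0.0518 and 0.0538), which left 1 gene higher. The storage protein genes Lsp1gamma and Lsp1beta were lower, as was Lsp2, at log2 -4.13 ± 0.98 and -1.37 ± 0.36 (adjusted p = 0.00937 and 0.0133). For Lsp1gamma the log2 was -2.59 without INT female replicate 3. These shares, 28.6% higher and 42.9% lower, stand beside 38.3% and 27.2% of all tested genes.

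Cytosolic ribosomal protein genes had 6 of 91 higher (6.59%) and 26 lower (28.6%) in INT males, at a median log2 of -0.41. The share lower is near the 27.2% of all tested genes. The count of lower genes moved with libraries, tool and scaling. It was 13 without INT female replicate 1 and 11 without INT female replicate 2. It was 42 with scaling on autosomal genes alone, 48 in DESeq2 and 72 with all 18 libraries in 1 fit. The 6 higher genes were RpL10Aa, RpL37b, RpS10a, RpS19b, RpS28-like and RpS28a, duplicates that are all autosomal. RpS19b had 21.2, 19.6 and 9.71 CPM in INT males and 0.863, 0.494 and 0.339 CPM in INT females (log2 4.898 ± 0.48, adjusted p = 0.000236). RpS5b, a duplicate known from the ovary, was the other way round, with 16.3, 12.5 and 6.28 CPM in INT males and 525, 488 and 379.8 CPM in INT females (log2 -5.31 ± 0.42, adjusted p = 0.000127).

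**Figure D4:**
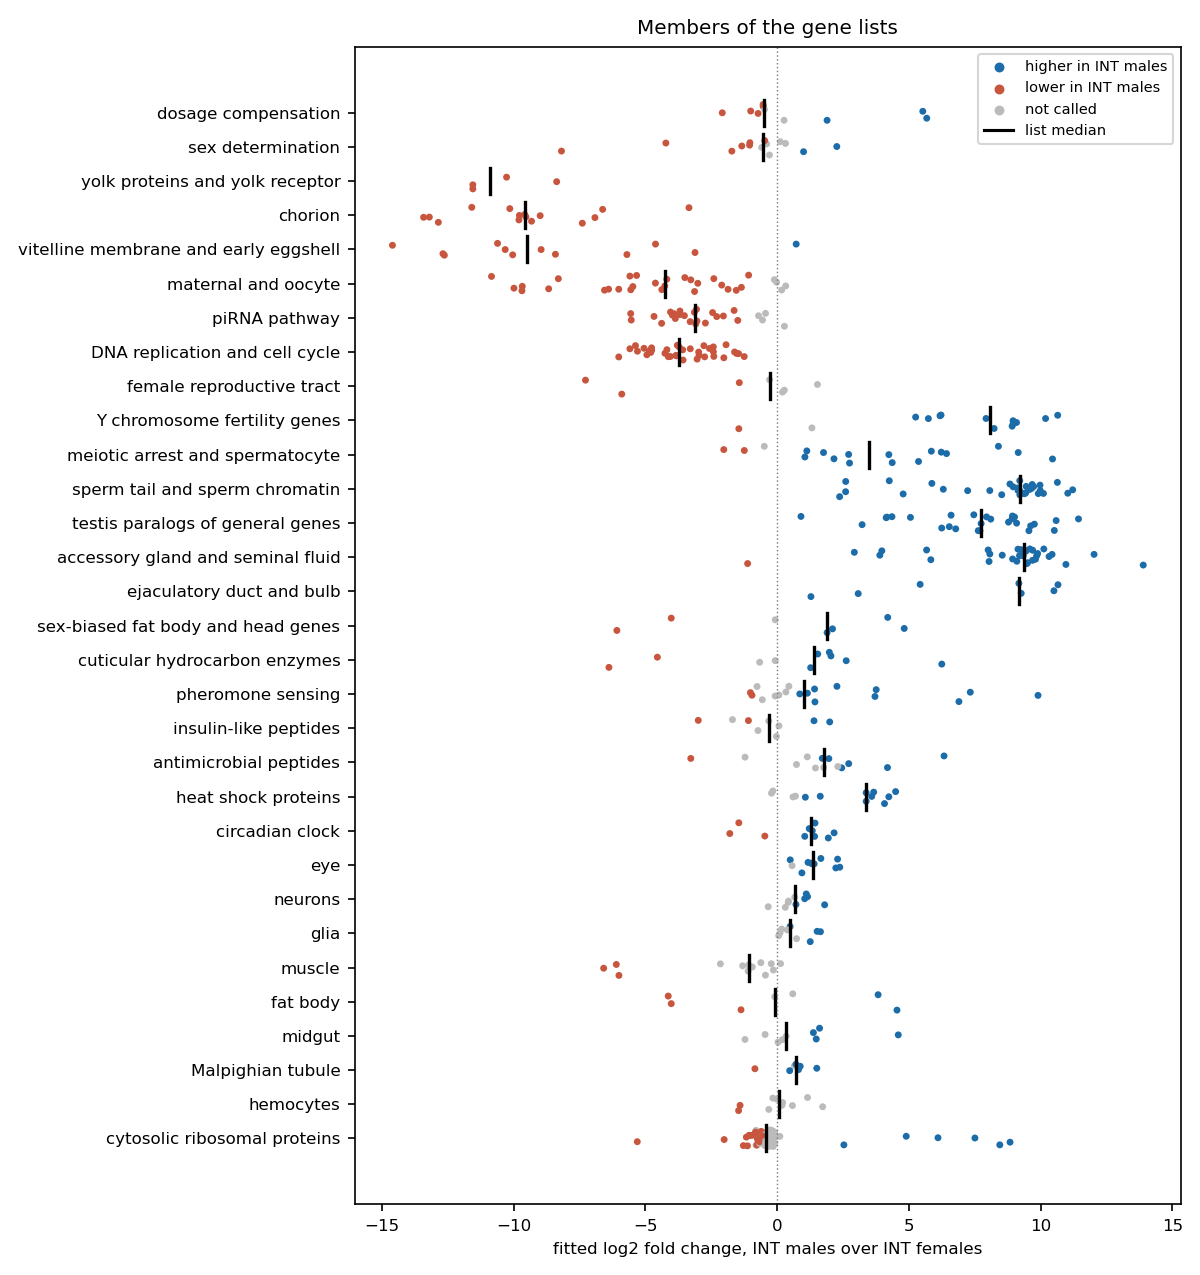
Fitted log2 fold changes, INT males over INT females, of the tested members of 31 gene lists, with 1 point per gene coloured by call and the list median as a black line. Fitted values of genes at or near 0 counts in 1 sex depend on the prior count. The median is -10.91 for yolk genes, 9.21 for sperm genes and 1.34 for eye genes.

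The sex difference of INT flies was set against that of the other groups, which share no library with it. In NINT, 6179 of 14614 tested genes were higher and 5709 lower in males. In F0, 4357 of 14758 were higher and 3167 lower in males. Of the genes higher in INT males 4944 were also called higher in NINT males, which is 88.6% of the INT list and 80.0% of the NINT list. Of the genes lower in INT males 3742 were called lower in NINT males, 94.3% of the INT list and 65.5% of the NINT list. With F0, the shared genes were 3818 higher in males (68.4% of the INT list and 87.6% of the F0 list) and 2558 lower (64.4% and 80.8%). Few genes were called in opposite directions, 36 and 25 of the genes higher and lower in INT males with NINT, and 11 and 5 with F0. The median of X genes lay below that of autosomal genes in each group, by -0.319 in INT, -0.404 in NINT and -0.414 in F0.

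NINT males, and F0 males other than replicate 3, held more RNA of the yolk genes and otu than INT males did. INT was chosen for its few yolk transcripts in males, so for the yolk genes this order follows from that choice. The values of otu, also a gene of the female germline, are given beside them as a description and not as separate support. Yp1 had 48.1, 300.4 and 506 CPM in NINT males and 13995, 11503 and 12035 CPM in NINT females. otu had 2.53, 11.1 and 28.5 CPM in NINT males and 371, 362 and 411.5 CPM in NINT females, beside 0.451, 1.51 and 0.605 CPM in INT males. In F0 males Yp1 had 405, 251 and 0.998 CPM and otu had 25.4, 13.5 and 0.618 CPM. F0 male replicate 3 thus lay below all INT males for Yp1 and within their range for otu. The part of these transcripts in the falls seen in NINT and F0 males was not tested.

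The difference between the sex differences was tested gene by gene. Between INT and NINT it was called for 190 of 15044 genes (1.26%), with 53 more male and 137 less male in INT. The count rested on single libraries. It was 17 without INT male replicate 1, 17 without INT male replicate 2 and 1850 without INT male replicate 3, and 105, 53 and 159 without INT female replicates 1, 2 and 3. NINT libraries were not left out in turn.

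Lsp2 was reversed between the groups. It had 2.696, 2.71 and 4.67 CPM in INT males and 62.2, 62.5 and 60.97 CPM in INT females, against 145, 70.99 and 62.3 CPM in NINT males and 17.3, 39.5 and 9.05 CPM in NINT females. The log2 difference of the sex differences was -6.28 ± 0.73 (SE, adjusted p = 0.0101). Cda9, of the chitin deacetylase family, had 13.2, 13.6 and 9.23 CPM in INT males and 3.04, 2.66 and 1.57 CPM in INT females, against 14.5, 8.94 and 12.7 CPM in NINT males and 27.8, 26.4 and 25.6 CPM in NINT females (3.45 ± 0.36, adjusted p = 0.0101). The males of the groups overlapped for Cda9 and the females did not.

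CG4000 had 37.96, 40.1 and 31.5 CPM in INT males and 115, 163 and 250.1 CPM in INT females, against 41.6, 41.00 and 41.1 CPM in NINT males and 14.97, 16.3 and 25.1 CPM in NINT females (-3.402 ± 0.39, adjusted p = 0.0101). CG11796 had 21.3, 24.9 and 21.6 CPM in INT males and 29.03, 21.7 and 28.6 CPM in INT females, against 56.9, 84.4 and 52.1 CPM in NINT males and 11.1, 11.7 and 13.8 CPM in NINT females (-2.63 ± 0.28, adjusted p = 0.0101). CG13101 had 12.6, 12.9 and 10.5 CPM in INT males and 12.3, 12.6 and 11.9 CPM in INT females, against 12.9, 14.2 and 14.7 CPM in NINT males and 4.14, 4.42 and 3.23 CPM in NINT females (-1.86 ± 0.22, adjusted p = 0.0101). For CG11796 and CG13101 INT males and INT females overlapped, while NINT males lay above NINT females. These 3 genes, Lsp2 and Cda9 were called in all 10 other fits.

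sina, a ubiquitin ligase gene needed for photoreceptor R7, had 87.03, 98.1 and 89.8 CPM in INT males and 77.4, 82.7 and 74.9 CPM in INT females, against 62.7, 65.2 and 57.5 CPM in NINT males and 113, 115 and 105 CPM in NINT females (1.07 ± 0.15, adjusted p = 0.0178). It missed the threshold without INT male replicate 2 (adjusted p = 0.0545). CG1809 had 39.2, 33.3 and 36.4 CPM in INT males and 30.9, 32.9 and 27.8 CPM in INT females, against 18.9, 20.5 and 26.6 CPM in NINT males and 67.95, 62.2 and 45.9 CPM in NINT females (1.67 ± 0.25, adjusted p = 0.023). The noncoding RNA CR45281 spans CG1809 and may share its reads (1.61 ± 0.24, adjusted p = 0.023). Both calls were lost without INT male replicate 1 or 2.

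**Figure D5:**
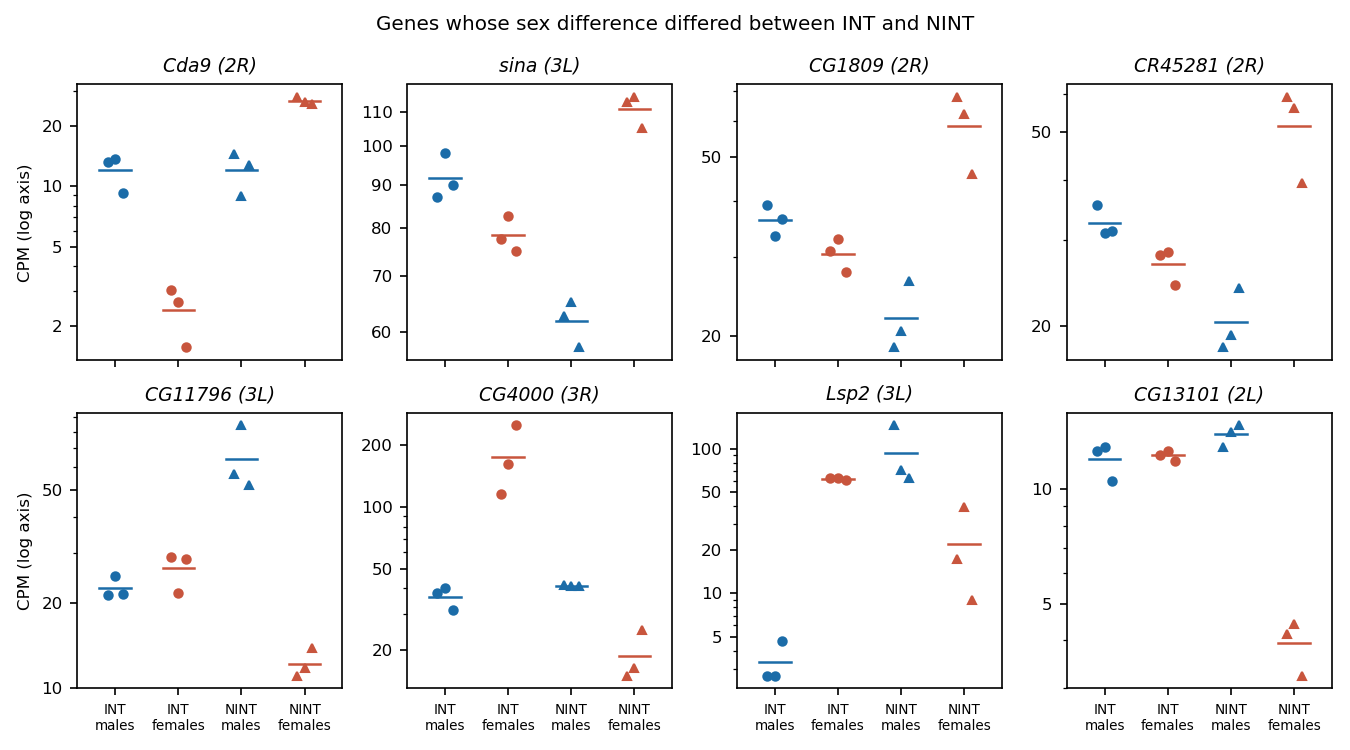
Levels of 8 genes whose sex difference was called different between INT and NINT, in TMM-scaled CPM on log axes that differ between panels. Points are libraries, with INT as circles, NINT as triangles, males blue and females red, and lines are means of 3. Lsp2 lies at 2.70 to 4.67 CPM in INT males, below INT females, and is higher in NINT males than in NINT females.

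Between INT and F0, edgeR called 0 of 15140 genes (0%), while 1795 had an unadjusted p under 0.05 and DESeq2 called 379. Without INT female replicate 3, edgeR called 6 genes. The 8 genes of smallest p shared an adjusted p of 0.0548. fit had 0.628, 0.623 and 0.281 CPM in INT males and 43.5, 38.8 and 22.3 CPM in INT females, against 1.88, 1.06 and 0.699 CPM in F0 males and 3.301, 5.898 and 5.34 CPM in F0 females. CG43679 had 122, 154 and 114 CPM in INT males and 18.6, 21.2 and 28.9 CPM in INT females, against 62.04, 41.4 and 46.9 CPM in F0 males and 69.2, 94.4 and 53.5 CPM in F0 females. The log2 difference of the other genes was -3.61 for Muc4B, -2.12 for CG32243 and -3.04 for CG17801, and it was 1.64 for CDase, 4.92 for CG6271 and 4.80 (4.802) for CG6277. None of the 8 passed the threshold in edgeR. DESeq2 called all 8 (adjusted p = 1.43e-11 to 7.39e-05), and CG43679 was also called with RLE scaling and without INT female replicate 3.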

How the data were processed

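RNA of whole flies was sequenced from stranded libraries, per the labels. The authors deposited raw counts per gene, 1 table per sex with 16747 entries in the same order, which were joined by row. The submitters' processing notes name dm6 and DESeq2; aligner, counting tool and strand setting: not given in the sources used here. Of the entries, 16531 matched the RefSeq annotation of dm6. The 109 ribosomal RNA and 2 SteXh entries were left out of library sizes and tests. edgeR 4.0.16 in R 4.3.3 (limma 3.58.1) gave TMM scaling, filterByExpr (minimum count 10, minimum total 15), the two-sided quasi-likelihood test and Benjamini-Hochberg adjusted p on the 6 libraries; the differences with NINT and F0 were interaction tests on 12 libraries (6 per group). Used counts were 35153187 to 38498563 per INT male library and 25280146 to 29022348 per INT female library. Against a group at 0 counts, folds are lower bounds at a floor of 3 counts summed over its libraries; intervals cover counting error only. DESeq2 1.42.0, other scalings and filters, the replicate block and leaving out each library were tried. The fit was tested on simulated data of this comparison (14567 genes): it called 7% of 100 genes changed 2-fold and 75% of 100 changed 4-fold, with 2 false calls. No other gene was changed there, whereas 65.6% of genes were called in the data, so the adjustment of p was stricter in the simulation. These shares therefore do not tell how many 2-fold or 4-fold differences were found or missed here. Tables and figures used Python 3.11.15, pandas 2.3.3 and matplotlib 3.10.9. Members, lists and the naming rule (the largest changes overall and on X, the most abundant called genes, the called list members of smallest p with every member against its list, and the smallest p of each interaction) were chosen with earlier results of these data known. CR40962, CR40963 and CR40976 were singled out after their values were seen, as were the single libraries named as standing apart, grk, tud, SPR, ninaC and NimC1.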

Additional observations from a re-analysis of the deposited data

Results flagged for a closer look

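8 genes are listed because the test of the difference between the sex differences of INT and NINT passed an adjusted p of 0.05 in edgeR, among the 190 genes that did. The log2 difference, INT minus NINT, was 3.45 for Cda9, 1.07 for sina, 1.67 for CG1809, 1.61 for CR45281 (1.615), -2.63 for CG11796, -3.40 for CG4000, -6.28 for Lsp2 and -1.86 for CG13101. All kept their direction in the 10 other fits.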

How the results depend on the processing

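The count of genes called between INT males and INT females stayed within 1.5 times of 9549 in every fit tried. It was 7384 with a filter of 5 CPM in 3 libraries, 10638 with all 18 libraries in 1 fit and 8122 to 10828 with a library left out, and 7311 genes also met a fold change of 2. DESeq2 called 10191, and leaving out the 3 entries of the ribosomal DNA block, an alternative chosen after seeing the data, gave 9610. No called gene changed sign in a fit that tested it, and 5608 genes were called in the same direction in all 18 fits (2806 higher, 2802 lower in INT males). Scaling on autosomal genes alone moved the median log2 of all genes to 0.13 (0.125), with 5225 higher and 4405 lower. X minus autosomes was -0.392 with no filter and -0.277 with 5 CPM in 3 libraries, -0.303 to -0.371 with a library left out, and within 1 SD of -0.319 in the other fits. For INT minus NINT, DESeq2 called 1005 genes and leaving out a library 17 to 1850. For INT minus F0, DESeq2 called 379, RLE scaling 1, and leaving out a library 0 to 6. Replicate numbers were not taken as pairs, since same-numbered males and females correlated at 0.17, -0.11 and 0.10; with the replicate block 8887 genes were called, X minus autosomes was -0.309, and INT minus NINT had 26 calls and INT minus F0 had 0; 11 of the 193 called named genes of the sex difference were then not called (Act88F, CR40976, Dpt, Eaat1, JIL-1, brp, fln, her, msl-3, ppk29 and tsl, adjusted p = 0.0501 to 0.166), nor were CG1809 and CR45281 of the INT minus NINT difference (0.0607 each), and the log2 of Act88F was -3.42. Among the 209 named genes of the sex difference 170 kept their call in every fit that tested them and 23 of the 193 called lost it in at least 1; the cause was not tested. Depth limits genes under a few CPM: a count of 0 over the 3 female libraries allows up to 3 counts.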
